A study of Arabidopsis thaliana with 32 samples.

Results

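The 10 genes described here encode glutathione transferases of the tau class in *Arabidopsis thaliana*, and they are a set fixed by gene identifier, proposed with earlier results of these data known, namely *GSTU1* (AT2G29490), *GSTU2* (AT2G29480), *GSTU3* (AT2G29470), *GSTU4* (AT2G29460), *GSTU5* (AT2G29450), *GSTU6* (AT2G29440), *GSTU7* (AT2G29420), *GSTU19* (AT1G78380), *GSTU24* (AT1G17170) and *GSTU25* (AT1G17180). They are 10 of the 28394 gene identifiers in the tables, and the genome holds 18 other tau class genes that were measured beside them. RNA of monosomes (messages on single ribosomes) and of polysomes (messages on several ribosomes) was sequenced from whole 10-day-old seedlings in 32 libraries. AA libraries came from wild type (Col-0) treated with 50 µM antimycin A, an inhibitor of respiratory complex III, for 5 h as labelled (the methods give a shorter time), and their controls from Col-0 given the solvent DMSO, with 3 libraries per fraction in each group. Per the methods, AA and DMSO seedlings spent the night before treatment in liquid medium in the dark. *2OX* is 1 line in the Col-0 background that overexpresses the mitochondrial calcium uniporter gene *MCU2*, fused to YFP, from the 35S promoter. The sextuple mutant combines mutations in all uniporter genes (mcu1-1 to mcu6-1, T-DNA insertions apart from the CRISPR allele mcu5-1) and is a knockdown, since some insertions lie in promoters and transcripts remain. *2OX* and the sextuple mutant had 3 libraries per fraction each, and untreated Col-0 had 4, of which 3 entered each comparison. Replicates 2 and 4 of Col-0 served both lines, so the line comparisons share controls. Nothing in the labels says whether replicates were separate cultures, so p-values measure the spread between these libraries.

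Glutathione transferases join the tripeptide glutathione to electrophilic compounds such as herbicides and oxidised lipids, and the conjugates are then carried into the vacuole by ABC transporters. The tau class is a plant class, and many of its genes respond to xenobiotics, oxylipins and oxidative stress through TGA factors, bZIP proteins that bind TGACG motifs. Antimycin A is a standard trigger of mitochondrial retrograde signalling, in which the factors NAC017 and NAC013 raise nuclear genes such as the alternative oxidase gene *AOX1A*.

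*GSTU1* to *GSTU7* lie in tandem on the minus strand of chromosome 2 (12617936 to 12632538, build TAIR10.1, RefSeq annotation), in the order *GSTU7*, *GSTU6*, *GSTU5*, *GSTU4*, *GSTU3*, *GSTU2*, *GSTU1* by coordinate. *GSTU24* (5869543 to 5870883) and *GSTU25* (5872024 to 5873124) are neighbours on the plus strand of chromosome 1, and *GSTU19* (29486387 to 29488007) is on its minus strand. Each of the 10 genes has 2 exons and a coding length between 657 and 684 bases. Coding sequences of *GSTU1* to *GSTU6* were 70.0 to 85.6% identical to each other in global alignments, with *GSTU1* and *GSTU2* the most alike pair. No stretch of 50 bases of any of the 10 mature transcripts occurred elsewhere in the nuclear genome, so reads of at least that length without mismatches could be placed. *GSTU2*, *GSTU6* and *GSTU7* overlap genes annotated on the opposite strand, and reads of such partners cannot be told apart from theirs where counting did not use strand, which the sources used here do not give.

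The 250 bases upstream of the annotated gene starts were searched on both strands for TGACG, the core of the TGA factor site, and for the motif of NAC013 and NAC017 targets (CTTG, any 5 letters, CA, any letter, G). Of the 10 windows 7 held TGACG, as did 18.6% of the windows of 27443 nuclear protein-coding genes. *GSTU1* and *GSTU7* held at least 2 copies, a pattern in 3.21% of all windows. The windows of *GSTU2*, *GSTU4* and *GSTU19* had no TGACG, and none of the 10 had the NAC motif, which stood in 1.75% of all windows. Matches are descriptions of these letters only. The windows of *GSTU2*, *GSTU5*, *GSTU7* and *GSTU24* overlap other annotated genes (*GSTU1*, AT2G29452, AT2G00850 and AT1G17160). The windows of 7 genes are shown, from the gene with the largest response below (*GSTU3*) to *GSTU6*, which was not called, with *GSTU4*, whose polysome response came next to that of *GSTU3*, as an example without the motif. Each runs 5′ to 3′ on the gene's strand up to the base before the gene start, with TGACG or its complement in capitals.
GSTU1, chr2:12632539-12632788, minus strand: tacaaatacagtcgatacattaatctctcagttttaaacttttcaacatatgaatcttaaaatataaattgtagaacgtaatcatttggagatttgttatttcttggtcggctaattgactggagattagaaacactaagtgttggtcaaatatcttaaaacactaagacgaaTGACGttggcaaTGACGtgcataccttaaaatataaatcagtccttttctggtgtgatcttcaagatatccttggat
GSTU3, chr2:12629641-12629890, minus strand: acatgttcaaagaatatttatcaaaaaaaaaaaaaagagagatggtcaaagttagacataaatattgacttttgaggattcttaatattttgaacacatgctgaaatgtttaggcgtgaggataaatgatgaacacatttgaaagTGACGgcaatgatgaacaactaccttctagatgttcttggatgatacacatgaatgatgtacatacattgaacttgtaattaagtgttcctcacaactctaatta
GSTU4, chr2:12627892-12628141, minus strand: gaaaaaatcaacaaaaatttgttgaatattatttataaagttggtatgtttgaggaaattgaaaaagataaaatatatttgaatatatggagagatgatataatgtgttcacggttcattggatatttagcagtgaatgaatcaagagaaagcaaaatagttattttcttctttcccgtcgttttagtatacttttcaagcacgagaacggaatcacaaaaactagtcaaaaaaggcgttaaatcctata
GSTU6, chr2:12621232-12621481, minus strand: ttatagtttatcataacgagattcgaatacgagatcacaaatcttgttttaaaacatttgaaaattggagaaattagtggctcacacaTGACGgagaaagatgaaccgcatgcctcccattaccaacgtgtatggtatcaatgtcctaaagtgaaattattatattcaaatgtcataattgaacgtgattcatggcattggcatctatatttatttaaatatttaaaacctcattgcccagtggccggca
GSTU7, chr2:12618900-12619149, minus strand: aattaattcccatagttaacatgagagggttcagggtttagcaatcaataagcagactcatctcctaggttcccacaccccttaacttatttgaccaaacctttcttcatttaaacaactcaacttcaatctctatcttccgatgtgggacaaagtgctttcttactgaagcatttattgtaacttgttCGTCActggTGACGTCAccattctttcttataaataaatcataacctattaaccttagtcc
GSTU24, chr1:5869293-5869542, plus strand: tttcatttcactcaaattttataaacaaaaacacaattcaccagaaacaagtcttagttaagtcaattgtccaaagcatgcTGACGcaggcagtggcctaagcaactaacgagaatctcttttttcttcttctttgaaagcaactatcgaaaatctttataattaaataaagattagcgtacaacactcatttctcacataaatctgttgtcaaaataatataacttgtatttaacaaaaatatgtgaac
GSTU25, chr1:5871774-5872023, plus strand: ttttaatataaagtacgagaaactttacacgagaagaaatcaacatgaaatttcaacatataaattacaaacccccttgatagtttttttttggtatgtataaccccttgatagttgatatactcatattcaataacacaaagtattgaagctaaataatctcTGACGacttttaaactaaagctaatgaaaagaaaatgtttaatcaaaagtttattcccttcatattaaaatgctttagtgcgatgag
In *GSTU1* the motifs stood 72 and 60 bases before the gene start, and in *GSTU7* 56, 47 and 44 bases before it, the last 2 overlapping. The distance was 100 bases in *GSTU3*, 82 in *GSTU25*, 157 in *GSTU6* and 164 in *GSTU24*. In *GSTU5*, whose window holds the motif but is not shown, it was 137.

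Deposited values are library-adjusted abundances per gene and not whole counts. They were taken as not corrected for length, which the sources used here do not state, and levels per kb rest on that. A library's values summed to 21.4 to 45.1 in units of 1e+06, of which nuclear protein-coding genes held 35.0 to 83.1%. Shoot markers (*RBCS1A*, *LHCB1.3*, *RCA*) were abundant in all libraries, root markers (*CASP1*, *COBL9*, *EXPA7*) were present, the flower marker *AP3* did not exceed 23.2, and the seed marker *CRA1* reached 399. Because whole seedlings were sampled, fewer cells of a type and less RNA per cell cannot be told apart. Tables were scaled separately, so tests were made within a table. The test throughout was limma on log2(value + 1) over all genes that reached 10 in 3 or more libraries, and a gene was called at an adjusted p (Benjamini-Hochberg) under 0.05. Of the 10 genes, 9 passed this filter in the AA tables and 8 in the line tables. *GSTU2* passed in none, and *GSTU3* only in the AA comparison.

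The first question was how the genes stood before any treatment or mutation. In DMSO polysome libraries *GSTU19*, an abundant enzyme known to be induced by herbicide safeners, had the highest level per kb of coding length at 30478 ± 3671 (SD, n = 3). It held 66.0 ± 3.46% of the summed per-kb level of the 10 genes. *GSTU24*, an enzyme able to conjugate the explosive TNT, followed at 9126 ± 1881 per kb. *GSTU1* (2572 ± 343 per kb) and *GSTU25* (2186 ± 826 per kb), the latter also active on TNT, came next and overlapped in their libraries. *GSTU4* (651 ± 102 per kb) and *GSTU5* (643 ± 129 per kb) overlapped as well. Below them stood *GSTU6* at 371 ± 124, *GSTU7* at 181 ± 65.8, *GSTU3* at 67.2 ± 41.2 and *GSTU2* at 0.496 ± 0.858 per kb. After AA, *GSTU3* had passed *GSTU6* and *GSTU7* in the order, with 2257 ± 486 per kb. The order after AA in polysome RNA was *GSTU19*, *GSTU24*, *GSTU25*, *GSTU1*, *GSTU4*, *GSTU5*, *GSTU3*, *GSTU7*, *GSTU6* and *GSTU2*, in which 3 of 9 neighbouring pairs overlapped. The summed per-kb level of the 10 genes was 39260 to 51272 in DMSO polysome libraries and 124320 to 159430 after AA.

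**Figure D1:**
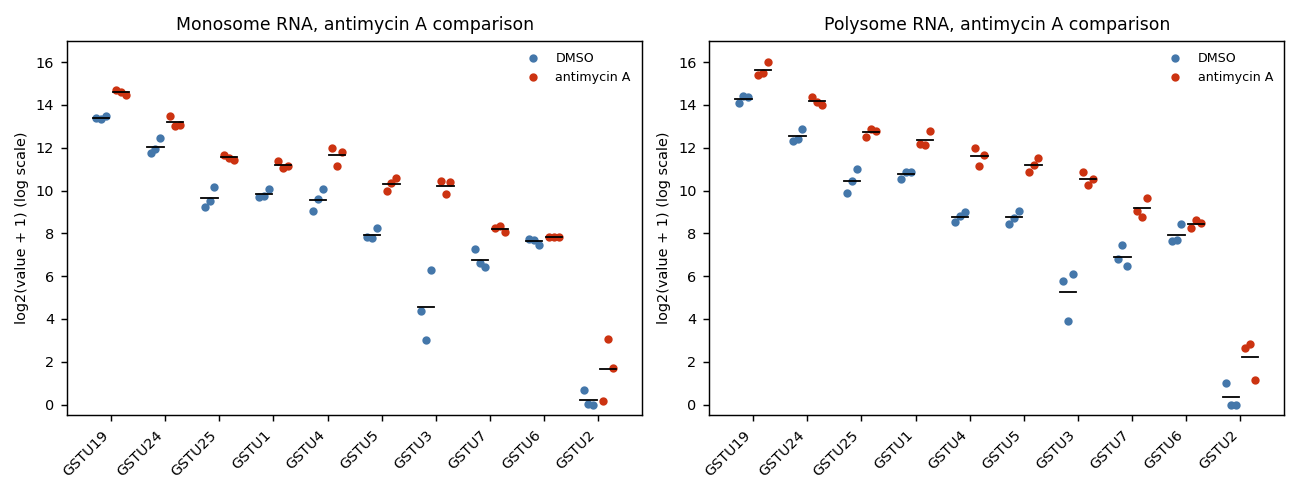
Values of the 10 genes in each library of the AA comparison, as log2(value + 1), for monosome RNA (left) and polysome RNA (right); points are libraries (3 per group), short lines the group means. In *GSTU3* the AA points lie far above DMSO, from 14.2 to 67.9 against 1227 to 1881 in polysome RNA, while those of *GSTU6* lie close to DMSO.

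AA raised 8 of the 9 tested genes in both fractions, and *GSTU6* was not called in either. *GSTU3* passed the monosome filter only through the AA libraries, in which it is high, and without it 7 of 8 were called in each fraction. Among all genes tested, 11.6% were called higher in monosome RNA and 8.48% in polysome RNA. Because the set was proposed with earlier results of these data known, the counts of its members are descriptions only. Without *GSTU3* the median log2 change was 1.40 in monosome and 1.95 in polysome RNA, beside -0.02 and 0.01 over all genes. In monosome RNA every AA library was above every DMSO library for all 9 genes (*GSTU3* included), as for 18.4% of all genes. In polysome RNA this held for 8 of 9 genes and for 18.0% of all genes.

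*GSTU3*, a gene of the tandem cluster, changed most. Its monosome values were 19.7, 7.05 and 77.8 in DMSO and 1415, 915 and 1344 after AA. Its polysome values were 54.6, 14.2 and 67.9 in DMSO and 1881, 1227 and 1483 after AA. All AA libraries were thus well above all DMSO libraries, among which replicate 2 was lowest in both fractions. The log2 change was 5.67 ± 0.54 (SE) in monosome RNA (limma adjusted p = 1.29e-06) and 5.28 ± 0.45 in polysome RNA (adjusted p = 2.11e-05). The added constant of 1 makes these changes somewhat smaller than those of the values themselves.

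*GSTU4* and *GSTU5*, on the far side of *GSTU3* from *GSTU2*, came next. *GSTU4* had 368, 445 and 505 in DMSO polysome libraries against 4039, 2296 and 3211 with AA, a 7.10-fold rise (log2 2.83 ± 0.21, adjusted p = 1.13e-05). In monosome RNA *GSTU4* had 522, 774 and 1062 in DMSO and 4049, 2291 and 3613 with AA, a log2 change of 2.09 ± 0.22 (adjusted p = 4.42e-06). AA replicate 2 was the lowest AA library of *GSTU4* in both fractions and still lay above all DMSO libraries. *GSTU5* had polysome values of 351, 427 and 524 in DMSO and 1856, 2320 and 2961 with AA, a 5.45-fold rise (log2 2.45 ± 0.21, adjusted p = 2.11e-05). Its monosome values were 224, 220 and 300 in DMSO and 1008, 1293 and 1538 with AA (log2 2.36 ± 0.19, adjusted p = 2.57e-07), again without overlap.

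*GSTU7* and *GSTU1*, the outermost genes of the cluster, also rose. *GSTU7* had 111, 174 and 86.7 in DMSO polysome libraries and 532, 432 and 816 with AA, a log2 change of 2.26 ± 0.29 (adjusted p = 0.000327). In monosome RNA its values were 155, 95.9 and 86.2 against 302, 325 and 268, a log2 change of 1.45 ± 0.28 (adjusted p = 0.00128). Here DMSO replicate 1 came closest to the AA libraries. *GSTU1* had polysome values of 1471, 1843 and 1894 in DMSO and 4582, 4469 and 6937 with AA, a 3.02-fold rise (adjusted p = 0.000206). Its monosome values were 834, 850 and 1076 in DMSO and 2632, 2108 and 2267 with AA, 2.54-fold higher (adjusted p = 3.81e-06), and the groups were apart in both fractions.

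Of the chromosome 1 genes, *GSTU19* and *GSTU24* rose from higher levels than the cluster genes, and *GSTU25* from levels that overlapped those of *GSTU1*. *GSTU25* had 948, 1380 and 2040 in DMSO polysome libraries and 5857, 7503 and 7024 with AA, 4.87-fold (log2 2.28 ± 0.24, adjusted p = 7.83e-05). Its monosome values of 601, 729 and 1146 stood against 3222, 2973 and 2783, 3.75-fold (adjusted p = 1.36e-06). In both fractions DMSO replicate 3 was the highest of its group for *GSTU25* and for its neighbour *GSTU24*. *GSTU24* had polysome values of 5084, 5500 and 7403 in DMSO and 20857, 17970 and 16477 with AA, 3.10-fold (adjusted p = 0.00011). In monosome RNA it had 3410, 3928 and 5632 in DMSO and 11527, 8215 and 8501 with AA, 2.20-fold (adjusted p = 0.000148). *GSTU19* had polysome values of 17368, 21946 and 21033 in DMSO and 43227, 45672 and 66305 with AA, 2.54-fold (adjusted p = 0.00083), and AA replicate 3 was highest. Its monosome values were 10726, 10486 and 11443 in DMSO and 26714, 24852 and 22826 with AA, 2.27-fold (adjusted p = 7.53e-06). The most abundant gene thus had one of the smaller folds, and its share of the per-kb sum was 56.9 ± 5.54% with AA.

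*GSTU6*, also in the cluster, was the tested gene not called. It had 198, 204 and 346 in DMSO polysome libraries and 303, 394 and 362 with AA, with overlapping groups, a log2 change of 0.54 (95% interval 0.01 to 1.07) and an adjusted p of 0.147. Without DMSO replicate 3, its log2 change was 0.80 at an adjusted p of 0.0489. Monosome values were 213, 207 and 177 in DMSO and 230, 227 and 230 with AA, a log2 change of 0.21 (95% interval -0.28 to 0.70, adjusted p = 0.569). *GSTU2* was near 0 in both groups, with at most 1.01 in DMSO and 7.49 with AA, and was not tested.

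Root markers moved in the same comparison. Their summed level was 421 to 536 in DMSO and 169 to 200 in AA monosome libraries, and 306 to 346 against 108 to 141 in polysome libraries. In each fraction 2 of the 3 root markers were lower in all AA libraries, and none was at 0. Over all genes this held for 19% in monosome and 19.7% in polysome RNA. Shoot markers summed to 506479 to 776405 in DMSO and 585697 to 1034240 in AA monosome libraries, with overlapping groups. In polysome libraries they summed to 281572 to 314592 in DMSO and 263756 to 410843 with AA. Of the 3 shoot markers 1 was higher in all AA monosome libraries, beside 18.4% of all genes, and 0 in polysome RNA. The part of these levels in the changes of the *GSTU* genes was not tested.

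**Figure D2:**
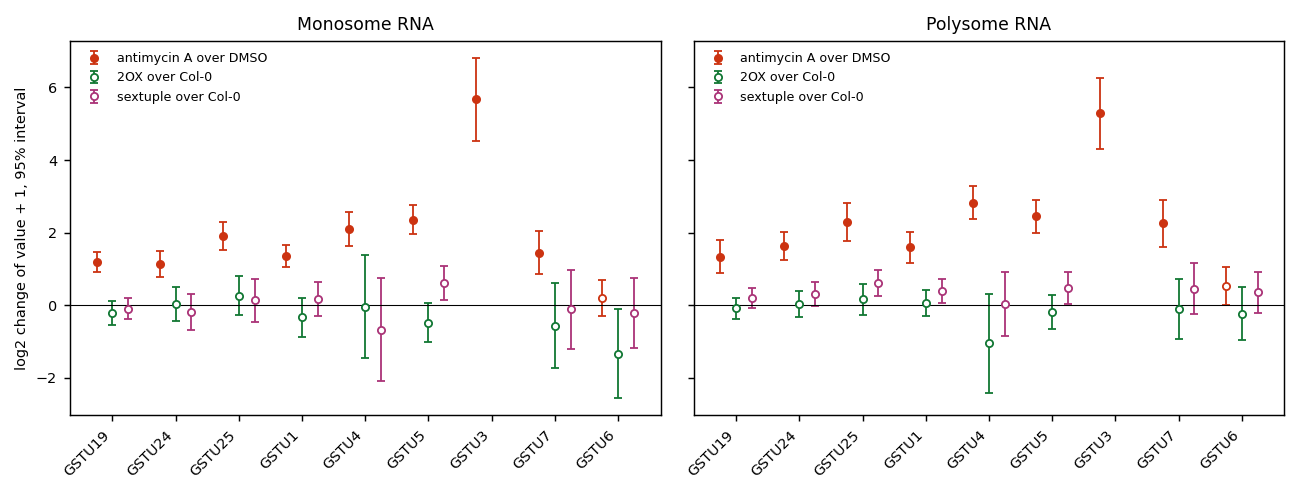
Log2 change of value + 1 for 9 genes in monosome RNA (left) and polysome RNA (right), in 3 comparisons; points are limma estimates from 3 libraries per group, bars 95% intervals, and filled points have an adjusted p under 0.05. The AA changes of 8 genes stand above 0, up to 5.67, while no estimate for *2OX* or the sextuple mutant was called.

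Translational efficiency (TE) compares polysome with monosome RNA, and the question was whether AA moved the genes more in one fraction than in the other. For none of the 9 tested genes was the difference between the polysome and the monosome change called, beside 0.887% of all genes (193 of 21769). In this fit, made without pairing the fractions, none had an unadjusted p under 0.05 either, where 11.9% of all genes did. That count was not made for the paired fit that follows, and it does not speak for it. Pairing gave smaller SEs for *GSTU4* (0.19, against 0.36 without pairing) and *GSTU24* (0.16, against 0.27). With libraries of the same number paired across fractions, 470 genes were called and none of the 9, the lowest adjusted p of limma being 0.0583 for *GSTU4* (log2 difference 0.73, SE 0.19). In that fit *GSTU24* followed with 0.49 (SE 0.16, adjusted p = 0.136). *GSTU25* had 0.375 (SE 0.18, adjusted p = 0.341) and *GSTU7* had 0.81 (SE 0.39, adjusted p = 0.342). In the fit without pairing *GSTU7* had the largest estimate, with a log2 difference of 0.81 (95% interval -0.06 to 1.69, limma adjusted p = 0.468). *GSTU4* had 0.73 (95% interval -0.01 to 1.48, adjusted p = 0.433) and *GSTU24* 0.49 (95% interval -0.08 to 1.06, adjusted p = 0.507). Only *GSTU3* had an estimate below 0, at -0.39 (95% interval -2.16 to 1.38, adjusted p = 0.896). The median over the 9 genes was 0.33, beside 0.04 over all genes.

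The split between fractions was also described within groups. Relative to the median of all genes in the same libraries, *GSTU19* in DMSO had a log2 polysome to monosome ratio of 1.04 ± 0.19 (SD, n = 3), between the 82.4th and 89.1th percentile of genes. *GSTU1* (1.08 ± 0.17), *GSTU25* (0.96 ± 0.15), *GSTU5* (0.96 ± 0.16) and *GSTU24* (0.65 ± 0.07) were also above the median in each of the 3 DMSO libraries. *GSTU3* (-0.01 to 1.56) and *GSTU7* (-0.33 to 1.00) were spread widely over the same libraries. *GSTU4* alone of the 9 had a mean below 0 in DMSO, with -0.63 ± 0.26 in DMSO and 0.10 ± 0.05 with AA. In untreated Col-0 of the *2OX* comparison *GSTU25* had the highest of these ratios, 1.59 ± 0.36, and *GSTU4* was lowest at -0.20 ± 0.94. The values of *GSTU4* there were at most 34.4, and its ratio ran from -1.28 to 0.47.

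**Figure D3:**
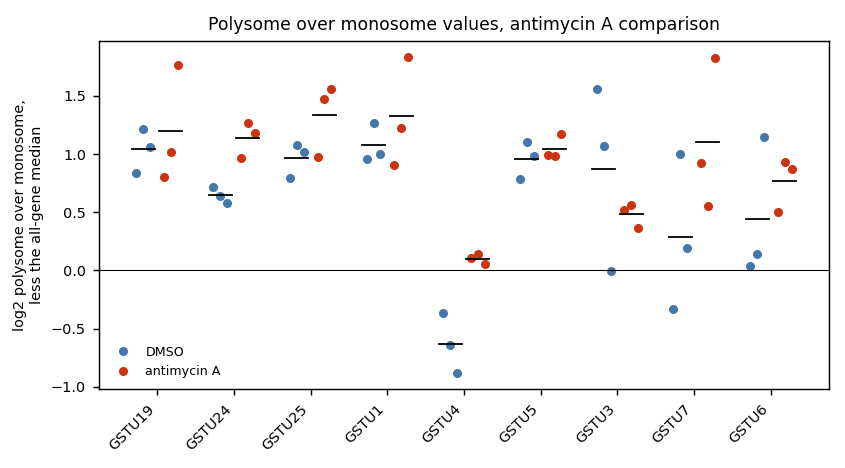
Polysome to monosome ratio (log2), less the median of all genes in the same libraries, for 9 genes in the AA comparison; points are libraries with the same replicate number (3 per group), lines group means. Most points lie above 0, and *GSTU4* in DMSO lies below it (-0.63 ± 0.26).

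The lines were compared with untreated Col-0 to see whether a lasting change in uniporter dose moved the same genes. No gene of the 8 tested was called in *2OX*, where 0.0866% of all genes were called in monosome RNA and 0.171% in polysome RNA. None of the 8 was called in the sextuple mutant either, where the shares over all genes were 0.101% and 0.149%. Members with an unadjusted p under 0.05 numbered 1 (*2OX* monosome), 0 (*2OX* polysome), 1 (sextuple monosome) and 3 (sextuple polysome) of 8. Over all genes that threshold was met by 4.90%, 5.76%, 5.60% and 10.0% in the same order. The median log2 change of the 8 genes in *2OX* was -0.27 in monosome and -0.09 in polysome RNA.

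In *2OX* the largest estimate belonged to *GSTU6*, whose monosome values were 49.0, 56.7 and 75.4 in Col-0 and 7.37, 44.3 and 35.7 in *2OX*. The log2 change was -1.33 (95% interval -2.56 to -0.10), with a limma adjusted p of 0.992. *2OX* replicate 1 was lowest, and all *2OX* libraries lay below all Col-0 libraries, as they did for *GSTU7* (21.1 to 35.0 in Col-0, 12.5 to 20.9 in *2OX*) and for 5.09% of all genes in that direction. In polysome RNA none of the 8 genes was apart between groups in either direction, beside 5.36% of all genes higher and 5.09% lower. *GSTU19* had 7338, 7200 and 7588 in Col-0 and 6275, 7605 and 7007 in *2OX* polysome libraries, a log2 change of -0.09 (95% interval -0.37 to 0.19). *GSTU24* had 440, 429 and 504 against 397, 518 and 500, a log2 change of 0.04 (95% interval -0.31 to 0.39). These intervals leave out changes of the size seen with AA for the same genes. *GSTU4* was close to the floor of the filter, with 17.7 to 22.2 in Col-0 and 4.62 to 23.3 in *2OX* polysome libraries, and its interval was wide (-2.40 to 0.32).

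In the sextuple mutant all 8 polysome estimates were above 0, with a median of 0.38 beside 0.01 over all genes, and none passed the adjusted threshold. In monosome RNA 5 of the 8 were below 0, with a median of -0.10. *GSTU25* in polysome RNA had 558, 592 and 623 in Col-0 and 1175, 708 and 902 in the mutant, without overlap, a log2 change of 0.62 (95% interval 0.26 to 0.98, limma adjusted p = 0.213). *GSTU1* had 518, 597 and 459 in Col-0 and 772, 660 and 627 in the mutant, also apart, with 0.39 (95% interval 0.06 to 0.71, adjusted p = 0.413). Over all genes, 7.27% lay higher without overlap in that table. *GSTU5* had 898, 517 and 537 in Col-0 and 1005, 989 and 679 in the mutant, overlapping, with 0.48 (95% interval 0.04 to 0.92, adjusted p = 0.455). Without Col-0 replicate 1, its highest control, the log2 change of *GSTU5* was 0.73 at an adjusted p of 0.0448. In monosome RNA *GSTU5* had 352, 208 and 316 in Col-0 and 527, 421 and 375 in the mutant, apart, as 5.06% of all genes were, with 0.61 (95% interval 0.14 to 1.09, adjusted p = 0.703). *GSTU24* and *GSTU19* gave -0.19 and -0.09 there, with overlapping groups.

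**Figure D4:**
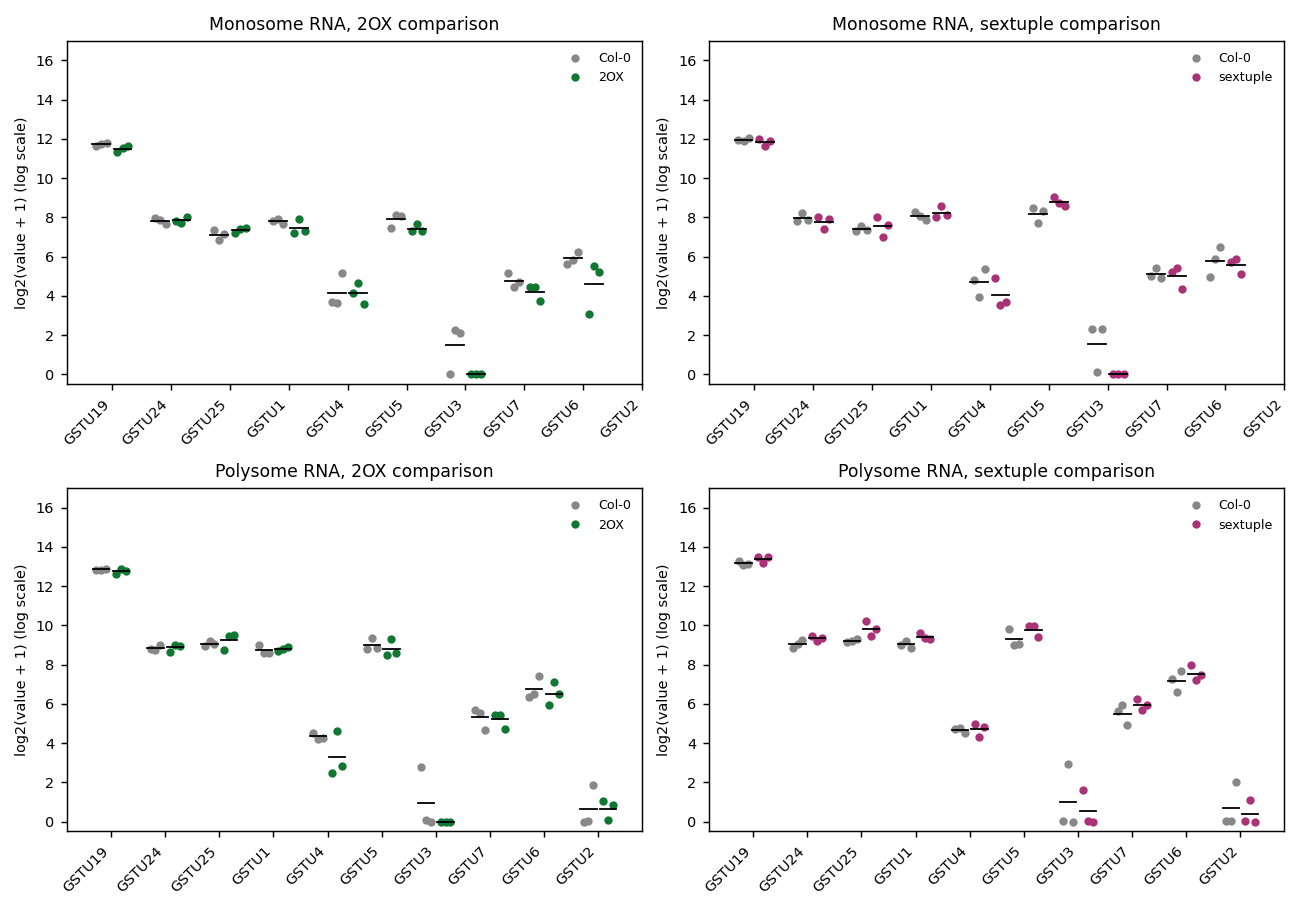
Values of the genes in each library of the *2OX* (left) and sextuple (right) comparisons as log2(value + 1), for monosome RNA (top) and polysome RNA (bottom); points are libraries (3 per group), short lines group means. The groups of most genes overlap, *GSTU3* and *GSTU2* stay at or under 6.53 in value, and *GSTU2*, with no monosome row in these tables, has no point there.

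*GSTU3* and *GSTU2* gave next to no signal in the lines and in untreated Col-0. *GSTU3* was listed at 0 (or under 1e-09) in all *2OX* libraries of both fractions and all sextuple monosome libraries, and reached at most 6.53 in Col-0 and 2.09 in the sextuple mutant. *GSTU2* reached at most 2.97. Neither entered the tests of the lines.

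TE was not called changed for any of the 8 genes in *2OX* (0.00486% of all genes, 1 gene) or in the sextuple mutant (0.00% of all genes, with 739 at an unadjusted p under 0.05). In these fits without pairing no member was under an unadjusted p of 0.05 in either. The estimates of *2OX* ran from -1.01 (*GSTU4*) to 1.10 (*GSTU6*), and those of the mutant from -0.14 (*GSTU5*) to 0.71 (*GSTU4*).

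Whether AA moved the genes more than the lines did was tested as the difference of the log2 changes, each taken within its own table. The AA change was measured after 5 h in seedlings kept overnight in dark liquid medium, and the line changes are lasting ones in untreated seedlings. Duration, medium, light and control level therefore differ together with the comparison, and the difference cannot tell their parts from that of AA. Against *2OX*, 8 of 9 genes rose more with AA in monosome RNA, where 3.56% of all genes did, and 8 of 9 in polysome RNA, where 3.65% did. In monosome RNA the call of *GSTU4* was lost (adjusted p from 0.0508 to 0.0806) without DMSO replicate 1 or 2, AA replicate 1 or 3, Col-0 replicate 4 or *2OX* replicate 3. The call of *GSTU7* was lost there (adjusted p from 0.0548 to 0.0835) without DMSO replicate 2 or 3, any AA replicate, Col-0 replicate 2 or *2OX* replicate 3. Against the sextuple mutant the counts were 7 of 9 in monosome RNA (4.31% of all genes) and 8 of 9 in polysome RNA (5.67%). Each of these counts includes *GSTU3*, and without it they are 7, 7, 6 and 7 of 8 in the order given. They too are descriptions of a set proposed with earlier results of these data known. *GSTU6* was called in none of them, and *GSTU7* was the other gene not called against the sextuple monosome libraries (log2 difference 1.55, limma adjusted p = 0.0885). For *GSTU4* the polysome difference from *2OX* was 3.87 ± 0.56 (SE, adjusted p = 0.000255) and for *GSTU19* it was 1.43 ± 0.25 (adjusted p = 0.00126). *GSTU3* gave the largest estimates, but since its values in the lines were near 0 they rest on the added constant and are no measure of size.

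Untreated and DMSO wild type stood in separately scaled tables and differed in medium, light and solvent, so their values are given side by side without comparison. *GSTU24* had 429 to 504 in untreated polysome libraries of the *2OX* table and 5084 to 7403 in DMSO. For *GSTU4* the values were 17.7 to 22.2 and 368 to 505, and for *GSTU19* 7200 to 7588 and 17368 to 21946. *GSTU5* had 435 to 643 untreated and 351 to 524 in DMSO. *GSTU24* held 4.86 ± 0.34% of the per-kb sum of the 10 genes in the untreated libraries and 19.7 ± 2.32% in DMSO, while the share of *GSTU19* was 78.0 ± 0.99% and 66.0 ± 3.46%. Shares are taken within a library and do not depend on the scaling of its table.

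Genes that act with the tau class were examined as lists, which were chosen with earlier results of these data known, so their counts are descriptions. Of the other 18 tau class genes 16 were tested with AA in each fraction, of which 5 rose and 0 fell in monosome RNA, and 5 rose and 2 fell in polysome RNA (median log2 0.34 and 0.10). Over all genes 11.6% were called higher in monosome and 8.48% in polysome RNA. Called lower were 10.4% in each fraction, so the falls in polysome RNA were near the share over all genes. *GSTU16* had 473, 679 and 608 in DMSO and 1513, 1771 and 2315 in AA polysome libraries (log2 1.66 ± 0.20, limma adjusted p = 0.000195). *GSTU22* rose by 1.38 and *GSTU9* by 1.32 on that scale. *GSTU28* went the other way, from 160, 143 and 134 to 14.7, 27.7 and 14.3 (log2 -2.94 ± 0.34, adjusted p = 0.000159), as did *GSTU14*, from 63.7 to 79.0 in DMSO to at most 8.33 with AA. *GSTU14* passed the polysome filter only through the DMSO libraries, in which it is high, so its place in the count of falls is a description only.

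Phi class transferases, the other large plant class, had calls in both directions. In polysome RNA 5 of 11 tested genes were higher and 2 lower, and in monosome RNA 5 were higher and 1 lower (median log2 0.88 and 0.62). Over all genes 8.48% and 11.6% were called higher in the same order, and 10.4% lower in each fraction. *GSTF8* rose from 23825 to 30100 in DMSO to 73374 to 82440 in AA polysome libraries (log2 1.52 ± 0.18, limma adjusted p = 0.000156). *GSTF3* rose by 1.61 and *GSTF2*, a transferase that binds indole compounds such as camalexin, by 1.19 on the log2 scale. *GSTF14* had 4954, 5719 and 5251 in DMSO and 202, 126 and 160 with AA (log2 -5.05 ± 0.19, adjusted p = 1.45e-07), and *GSTF13* fell by 1.67 on the log2 scale (adjusted p = 0.0372) from low values. *GSTF14* also fell more in polysome than in monosome RNA (TE difference -1.34, adjusted p = 0.0476).

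Genes that supply glutathione rose in part, 4 of 7 in polysome and 5 of 7 in monosome RNA, and none fell. Over all genes 8.48% and 11.6% were called higher in the same order, and 10.4% lower in each fraction. *GSH1*, encoding the first enzyme of glutathione synthesis, had 3063, 4034 and 4281 in DMSO and 8233, 7238 and 7901 in AA polysome libraries (log2 1.05 ± 0.16, limma adjusted p = 0.00103). *DHAR2*, a dehydroascorbate reductase that uses glutathione, and *GR1*, a glutathione reductase, rose by 1.02 and 0.96 on the log2 scale.

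All 7 listed detoxification partners were called higher in both fractions, with a median log2 change of 1.59 in polysome and 1.68 in monosome RNA. Over all genes 8.48% and 11.6% were called higher in the same order. Because the list was chosen with earlier results of these data known, its count is a description only. *CYP81D11*, a xenobiotic-responsive cytochrome P450, had 159, 153 and 124 in DMSO and 1258, 1090 and 972 in AA polysome libraries (log2 2.92 ± 0.19, limma adjusted p = 6.23e-06). *OPR1*, an oxophytodienoate reductase, rose by 2.12 and *UGT74E2*, a glucosyltransferase of the auxin indole-3-butyric acid, by 1.97 on the log2 scale. Their AA and DMSO libraries did not overlap.

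Regulators and a target of the retrograde route were mostly not called, with 2 of 7 higher and 0 lower in each fraction. Over all genes 11.6% were called higher in monosome and 8.48% in polysome RNA. The 2 called in monosome RNA were *NAC013* (log2 0.99) and *SCL14*, which binds TGA factors (log2 0.51, limma adjusted p = 0.00908). *AOX1A* was not called there (log2 0.39, adjusted p = 0.101). *NAC013* rose by 1.03 ± 0.15 in polysome RNA (log2, limma adjusted p = 0.000578) and *AOX1A*, the alternative oxidase, by 0.86 ± 0.17 (adjusted p = 0.00436). Neither *TGA2*, *TGA5*, *TGA6* nor *SCL14* was called in polysome RNA. In *2OX* polysome RNA *NAC013* (log2 1.65, adjusted p = 0.0101) and *AOX1A* (log2 1.07, adjusted p = 0.00812) were called higher than in Col-0, in the table in which none of the 8 *GSTU* genes was. In *2OX* monosome RNA neither was called (*NAC013* log2 2.14, adjusted p = 0.179, and *AOX1A* 0.85, adjusted p = 0.128). In the lists of other tau class, phi class, glutathione supply and detoxification genes none was called in *2OX* or the sextuple mutant in either fraction.

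**Figure D5:**
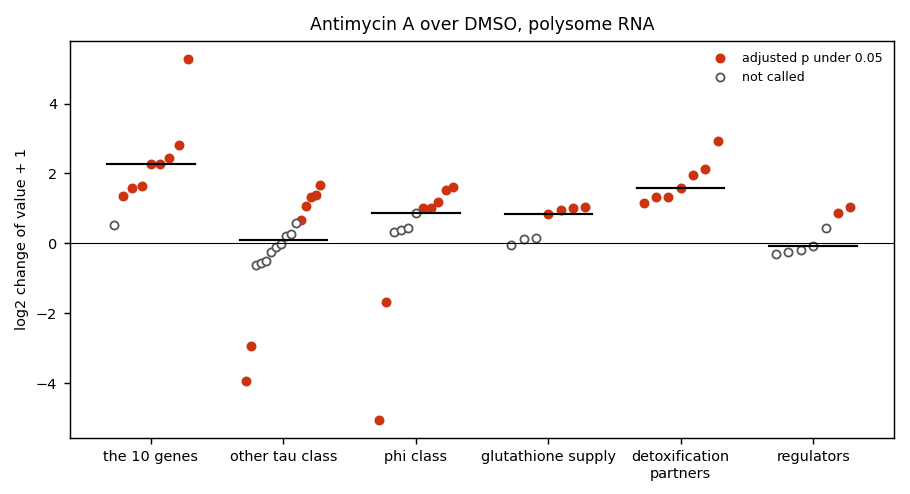
Log2 change of value + 1 with AA in polysome RNA for each tested gene of 6 lists; points are genes (filled, adjusted p under 0.05), lines list medians, and the first list holds the 9 tested of the 10 genes. The first list and the detoxification partners lie above 0 throughout, while the tau and phi classes hold genes on both sides.

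Likeness of pattern was described over the 12 libraries of the AA comparison, on log2(value + 1) centred within each fraction, so that the AA step and the spread within groups both count. Against the mean of the other members, Pearson's r was 0.98 for *GSTU1* and *GSTU5*, between 0.88 and 0.98 for 8 genes in all, and 0.67 for *GSTU6*. Of 20233 genes compared, the 3 outside the tau class most like the mean of the 9 were AT5G18310, AT5G14730 and *HSP90.1* (AT5G52640), a cytosolic chaperone, at r = 0.997, 0.996 and 0.996. *HSP90.1* had 311, 354 and 395 in DMSO and 1899, 1998 and 2653 in AA polysome libraries. AT5G14730 had 1160, 1067 and 1590 against 4220, 4419 and 4893, and AT5G18310 had 3404, 3519 and 3864 against 6179, 5669 and 6482. All 12 points share the AA step, and these values are a description only. *GSTU3*, with the largest step, is part of the mean of the 9, and a mean without it was not tried.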

How the data were processed

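Libraries were made from monosome and polysome RNA with TruSeq reagents. The submitters' processing notes name Bowtie 0.12.2 and the build TAIR10, and the counter and the scaling are not given in the sources used here. The authors deposited 1 table per comparison and fraction, whose values are a signal per gene adjusted for library size. Between 2.74 and 12.5% of values in a library were whole (within 1e-06), and low values followed no common step, so read counts were not recovered and no count test was run. Depth is therefore unknown beyond the sums, and no counting intervals are given. Columns with the authors' fold changes, p-values, TE and projection scores were not used. All 72 value columns were mapped to samples by name, and the tables that combine both fractions held the same values for the genes they list.

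Values were tested as log2(value + 1) with limma 3.58.1 in R 4.3.3 (lmFit, eBayes with a variance trend, two-sided, Benjamini-Hochberg over all genes tested), after a filter of at least 10 in at least 3 libraries. TE was the interaction of group and fraction. Intervals are at 95%. Fits were tested on simulated data. The 10 genes and the lists were chosen with earlier results of these data known. Named genes were the 10 members, of each list up to 3 largest rises and falls called in AA polysome RNA, and the 3 genes most like the members. Outside that rule the regulators *TGA2*, *TGA5*, *TGA6* and *SCL14*, not called in AA polysome RNA, were also named. All 70 list genes matched RefSeq TAIR10.1 by locus tag, and sequences and positions are from that build. Levels between genes were compared per kb of coding length. Alternatives were another pseudocount, no filter, 2 other scalings, no variance trend, a replicate block and each library left out.

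Fractions of the same replicate number deviated together in AA and *2OX* tables (r of deviations from group means, 0.15 to 0.39 and 0.14 to 0.58, with every pair over 0.1), which pairs them, and not in all of the sextuple tables (-0.02 to 0.44).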

Additional observations from a re-analysis of the deposited data

How the results depend on the processing

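The counts of members called, in 13 comparisons, were recomputed under 12 or 17 alternatives each, and with the share of *GSTU19* added, 176 of 177 values stayed within 1.5 times (the share, within its SD) of the main one. Exceptions and ranges with 1 library left out were as follows. The sextuple polysome count was 0, and 0 to 1 with 1 library left out (*GSTU5*, without Col-0 replicate 1). The AA polysome count of 8 ran from 8 to 9 (*GSTU6*, without DMSO replicate 3). The count of AA against *2OX* in monosome RNA ran from 6 to 8, where *GSTU4*, *GSTU7* or both lost their calls in 9 of 12 such fits, and was 6 without a variance trend, where *GSTU4* and *GSTU24* lost theirs. The count of AA against the sextuple monosome libraries was 7, 8 with a pseudocount of 10 (*GSTU7*) and 6 without a variance trend (*GSTU24*). No called log2 change of a member changed sign under any alternative. The log2 changes of the 8 members called with AA kept their calls under all 12 alternatives in each fraction, from 4.90 to 6.54 for *GSTU3* in monosome RNA and from 1.03 to 1.24 for *GSTU19*. Scaling to the sum of nuclear protein-coding genes moved the median over all genes from -0.02 to -0.18 in AA monosome RNA and from 0.04 to 0.11 in AA TE, with no change in the members' calls. The differences between AA and the lines had no block. With the replicate block the counts of members called were 8 (AA monosome), 8 (AA polysome) and 0 in the lines and in TE. Over all genes the block moved the counts from 4645 to 5712 in AA monosome and from 193 to 470 in AA TE, from 20 to 97 and from 30 to 173 in sextuple monosome and polysome RNA, and from 17 to 10 and from 34 to 9 in *2OX*. Equal replicate numbers did not pair the groups within a fraction in all tables (r from -0.22 to 0.24). In AA monosome RNA r was 0.06 to 0.24 for equal numbers and at most 0.05 for others. In the *2OX* tables replicates 1, 2 and 3 of *2OX* deviated together with Col-0 replicates 2, 3 and 4. There r was 0.28 to 0.34 in monosome and 0.12 to 0.25 in polysome RNA. The block used equal numbers, and a block by that offset was not fitted. Without a variance trend the glutathione supply list had 3 genes called in AA monosome RNA and the regulators 1. The share of *GSTU19* was 66.0% per kb and 65.9% on deposited values. Coding lengths of 657 to 684 bases could hardly move it, so this pair is no test of the share, and lengths of mature transcripts were not tried. Having 3 libraries per group with an unknown read depth limits what can be said of genes near 0.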
